A study of Mus musculus with 12 samples.

Results

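Transcripts of the immediate-early and heat-shock response were examined in microglia and in macrophages of the mouse central nervous system (CNS), with and without the TGF-beta receptor gene Tgfbr2. The response was represented by 33 listed genes: 7 subunits of the AP-1 transcription factor, 3 EGR and 3 KLF transcription factors, 6 genes of early growth control, 4 phosphatases and mRNA decay factors, 6 heat-shock chaperones and 4 feedback inhibitors or co-regulators of NF-kappa B and JAK-STAT signalling. Members were taken by gene symbol from a list of names, and the rule used no measured value. The list itself was chosen with earlier results of these data known. All 33 were found among the 25904 genes of the deposited table, and 32 were among the 12519 genes with enough reads to be tested. Dusp5, a phosphatase gene, was the member left untested, with 0 to 13.7 normalized counts in the 12 libraries.

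Immediate-early genes are switched on within minutes of a stimulus, without new protein synthesis, by transcription factors that are already in the cell and are activated by MAP kinases, NF-kappa B or calcium signals. Heat-shock genes are switched on by heat shock factor 1 when proteins unfold, and their products refold those proteins. In microglia and other tissue macrophages both programmes are also known to be induced while cells are dissociated and sorted, so that their level in sorted cells can reflect handling as well as the state in the tissue.

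There were 4 groups of 3 libraries, and a library pooled cells of 1 to 5 C57BL/6 mice. WT microglia came from Tgfbr2 fl/fl mice without Cre, and KO microglia from Cx3cr1 CreER/+ Tgfbr2 fl/fl mice. Both genotypes received 3 daily injections of 5 mg tamoxifen, and brain and spinal cord cells were sorted 18 to 22 days later. WT and KO macrophages descended from bone marrow of these same 2 genotypes, transplanted into irradiated Cx3cr1 CreER/+ R26 DTA/+ hosts. There, tamoxifen given 6 weeks after the transplant made the hosts' own Cx3cr1-expressing cells produce diphtheria toxin, which depleted their microglia, and the cells of donor origin in the CNS were collected 18 to 22 days after that. The age of the mice is not given in the sources used here. Sorted cells were alive, lacked Ly6C and carried CD11b, and the gate on the macrophage antigen F4/80 differed: it was low in the WT groups and high in the KO groups. Genotype, gate and the loss of 1 Cx3cr1 allele to CreER therefore changed together and cannot be told apart. The macrophage groups also differed from the microglia by irradiation, transplantation and toxin-mediated depletion in the host.

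Libraries held 2615404 to 6364994 reads in genes, and replicate 1 of the KO macrophages was the shallowest. Values below are normalized counts, that is, reads divided by the library's size factor; 1 read was worth 0.718 to 1.60 normalized counts, so that counting error weighs most on the sparsely counted Egr2, Egr3, Dusp2, Dusp5 and Gadd45b. Tgfbr2 itself was at 2898 ± 356 (SD, n = 3 libraries) in WT against 2193 ± 100 in KO microglia, and at 3303 ± 267 against 2235 ± 209 in macrophages; the counts cover the whole gene and not the deleted exons alone. The microglial markers summed to 57234 to 75089 in WT microglia, 5281 to 5813 in KO microglia, 19216 to 20182 in WT macrophages and 5881 to 6742 in KO macrophages, and all 8 of them were detected in every group. Macrophage markers summed to 1335 to 1842 in WT microglia and to at least 96575 in each library of the other 3 groups. In both sums the KO microglia lay nearer to the KO macrophages than to the WT microglia. Markers of neurons and astrocytes were low throughout but higher in the KO groups. Neuronal markers summed to 14.1 to 25.8 in WT and 116 to 155 in KO microglia, and to 35.5 to 58.5 in WT and 83.3 to 160 in KO macrophages. Astrocyte markers summed to 46.7 to 112, 197 to 273, 41.9 to 66.1 and 139 to 178 in the same order. Their part in the results was not tested.

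Sequences upstream of the start site are shown for 5 members, chosen after their levels and motif matches were seen: the inducible Hsp70 pair Hspa1a and Hspa1b, the MAP kinase phosphatase gene Dusp1, and the feedback inhibitors Socs3 and Tnfaip3. Each is the 180 bases before a RefSeq start site, 5′ to 3′ in the gene's direction, on GRCm38.p6, in lower case with matched motifs in capitals. For Dusp1, Socs3 and Tnfaip3 the window lies within the span of the gene in GENCODE, which begins further upstream. Tnfaip3 has another RefSeq start site, whose window (chr10:19011964-19012143) held 0 matches. The Tnfaip3 window shown was chosen because it had matches.
Hspa1a (chr17:34972157-34972336, minus strand): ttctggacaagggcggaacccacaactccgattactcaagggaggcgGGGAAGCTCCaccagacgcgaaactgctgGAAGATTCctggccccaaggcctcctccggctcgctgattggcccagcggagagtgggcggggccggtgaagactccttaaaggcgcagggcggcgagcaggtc
Hspa1b (chr17:34959239-34959418, minus strand): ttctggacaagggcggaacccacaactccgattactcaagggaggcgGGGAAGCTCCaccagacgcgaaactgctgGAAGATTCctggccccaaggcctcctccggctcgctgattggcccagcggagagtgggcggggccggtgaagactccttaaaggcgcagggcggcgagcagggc
Dusp1 (chr17:26508473-26508652, minus strand): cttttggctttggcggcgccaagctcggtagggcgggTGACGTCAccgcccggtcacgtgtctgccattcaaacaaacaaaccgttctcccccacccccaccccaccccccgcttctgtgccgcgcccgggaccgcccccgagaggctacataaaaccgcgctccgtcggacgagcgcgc
Socs3 (chr11:117969367-117969546, minus strand): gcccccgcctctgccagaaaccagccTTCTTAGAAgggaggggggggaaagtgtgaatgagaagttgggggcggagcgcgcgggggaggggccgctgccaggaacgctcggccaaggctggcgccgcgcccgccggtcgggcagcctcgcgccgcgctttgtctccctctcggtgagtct
Tnfaip3 (chr10:19015411-19015590, minus strand): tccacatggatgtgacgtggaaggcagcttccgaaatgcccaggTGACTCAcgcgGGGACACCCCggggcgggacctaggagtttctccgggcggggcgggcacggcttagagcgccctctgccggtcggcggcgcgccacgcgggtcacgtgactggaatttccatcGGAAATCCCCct
In Dusp1 the capitals mark a cyclic AMP response element (CRE, TGACGTCA), which was present in 1.45% of the 32851 mouse promoters of the same length. In Hspa1a and Hspa1b they mark a kappa B site (5.49% of promoters) and the core of a heat shock element, GAANNTTC (4.73%). In Socs3 they mark a STAT site, TTCNNNGAA (4.88%), and in Tnfaip3 an AP-1 site, TGANTCA (4.97%), followed by 2 kappa B sites. Both strands were searched, and the kappa B site can overlap itself. Of the 27 members with a RefSeq promoter, kappa B sites were also found in Egr2, Ier3 and Nfkbia, a CRE in Btg2, a STAT site in Zfp36 and GAANNTTC in Jun. The other arrangement of the heat shock core, TTCNNGAA (5.11% of promoters), was found in Hsph1 and Egr2. The CArG box, the site of serum response factor (1.09%), was found in Egr2, Zfp36 and Dusp5. A TATA box, TATAAA (8.94%), was found in Fos and Gadd45b. The full heat shock element of 3 alternating units (0.344%) was in none of the windows of these 27 members. Egr2, Dnajb1, Hsph1 and Tnfaip3 had several windows each, so they had more chances of a match than the single promoters behind these shares. A match describes these letters and does not show that a factor was bound. The Hspa1a and Hspa1b windows carried the same letter at 179 of 180 positions. Of the 50-base stretches of the Hspa1a transcripts, 58.8% also occurred in Hspa1b, and 62.3% of those of Hspa1b in Hspa1a, so that the division of reads between these 2 genes is uncertain.

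The libraries of a group were compared before the groups, since these genes can respond to cell isolation. Most of the members stood high or low together from library to library. Replicate 1 of the KO macrophages was the highest of its group for 29 of 33 members (28 of the 32 tested), against 39.4% of all tested genes. Its members stood at a median of 1.15 above the other 2 libraries on the log2 scale, where the median of all genes was -0.04. Replicate 3 of the WT microglia was the highest of its group for 30 of 33 members (31.7% of all genes), with a median difference of 0.44. Replicate 1 of the KO microglia was the highest for 31 of 33 (36.0%), with a median of 0.32. In WT macrophages replicate 2 was the highest for 24 (34.0%) and replicate 3 the lowest for 28 (31.4%), the latter with a median of -0.51. Each of the 4 groups thus held a library in which most of these genes stood at one end. These are descriptions without a test, because genes measured in the same library are not independent.

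**Figure D1:**
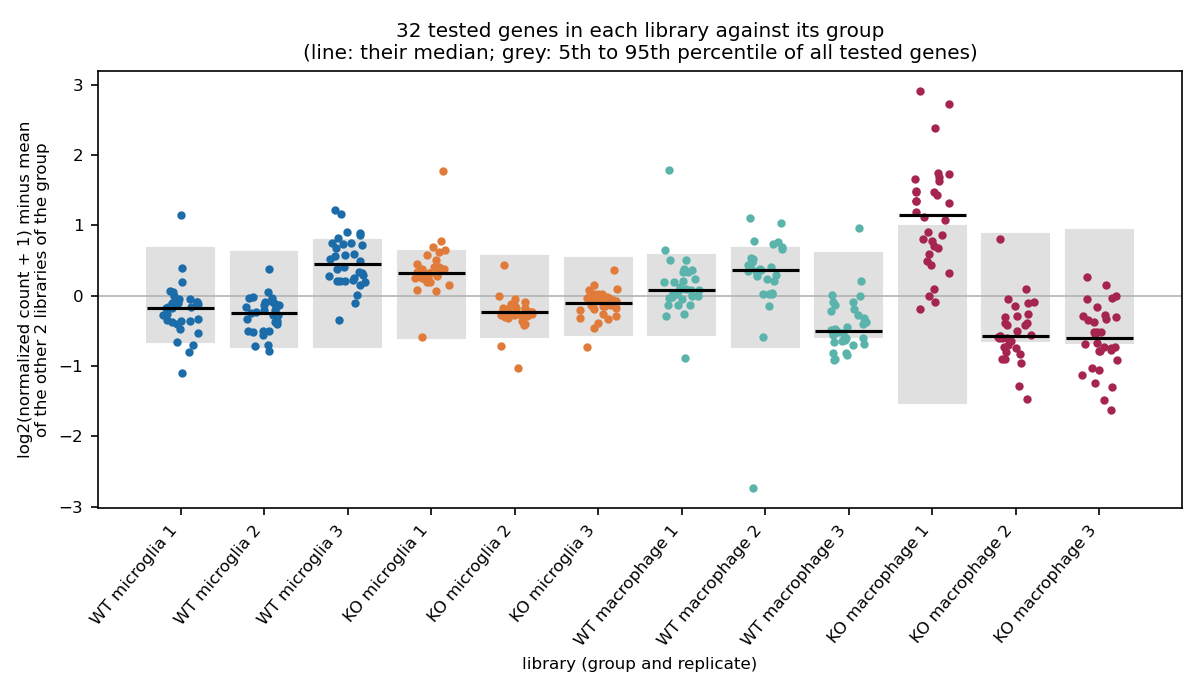
Log2 difference of each of the 32 tested members (points) from the mean of the other 2 libraries of the group, by library, with a black line at the members' median and a grey band for the 5th to 95th percentile of all tested genes. In KO macrophage replicate 1 the median lies at 1.15, above the band, and in the other 11 libraries it lies within the band.

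Replicate 1 of the KO macrophages stood apart in a set of stress and early genes, not in all of the members, and also in genes outside the list. Over all tested genes, the 5th percentile of the log2 difference was -0.648 in replicate 2, -0.674 in replicate 3 and -1.53 in replicate 1. The 95th percentile was 0.882, 0.933 and 0.988 in the same order. Replicate 1 was the highest of its group for 39.4% of these genes and the lowest for 45.6%. Ier3, an early gene that limits apoptosis, was at 333 there against 47.1 and 40.2 in the other 2 libraries, 7.62 times their mean. Klf4 was at 351 against 49.7 and 55.3, and Klf2, a KLF factor that restrains inflammatory activation, at 1215 against 266 and 203, which were 6.67 and 5.18 times the mean of the others. These 3 genes and the next 5, Egr1 at 3.35, Egr2 at 3.35, Fos at 3.22, Jun at 3.12 and Fosb at 3.10 times, are all transcription factors or early effectors. At the other end, Fosl2 was at 0.877, Tnfaip3 at 0.937, Socs3 at 0.997 and Dusp2 at 1.07 times the mean of the others. By role, the median log2 difference was 2.38 for the KLF factors, 1.73 for the EGR factors, 1.31 for the AP-1 subunits and 1.21 for the chaperones, and 0.16 for the NF-kappa B and JAK-STAT feedback genes. This library lay above all KO microglia libraries for 19 members, within their range for 10 and below it for 4 (Dusp1, Klf6, Hspa1a and Tnfaip3). Replicates 2 and 3 of the KO macrophages lay below all KO microglia libraries for 27 and 28 members. The oligodendrocyte markers also summed higher in replicate 1, to 658 against 410 and 377, and its T and NK cell markers lower, to 48.0 against at least 98.6, with 1 of 8 T and NK markers at 0 in the whole group. That lower sum was of Cd4, at 33.6 against 85.5 and 104; Cd3g was higher there, at 12.8 against 4.36 and 3.59. Mitochondrial transcripts made up 4.61% of its reads, against 6.43% and 5.34%. The part of these differences and of its lower depth in the members' levels was not tested. Because this library sets the spread of these genes, each count of calls below is given with and without it.

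**Figure D2:**
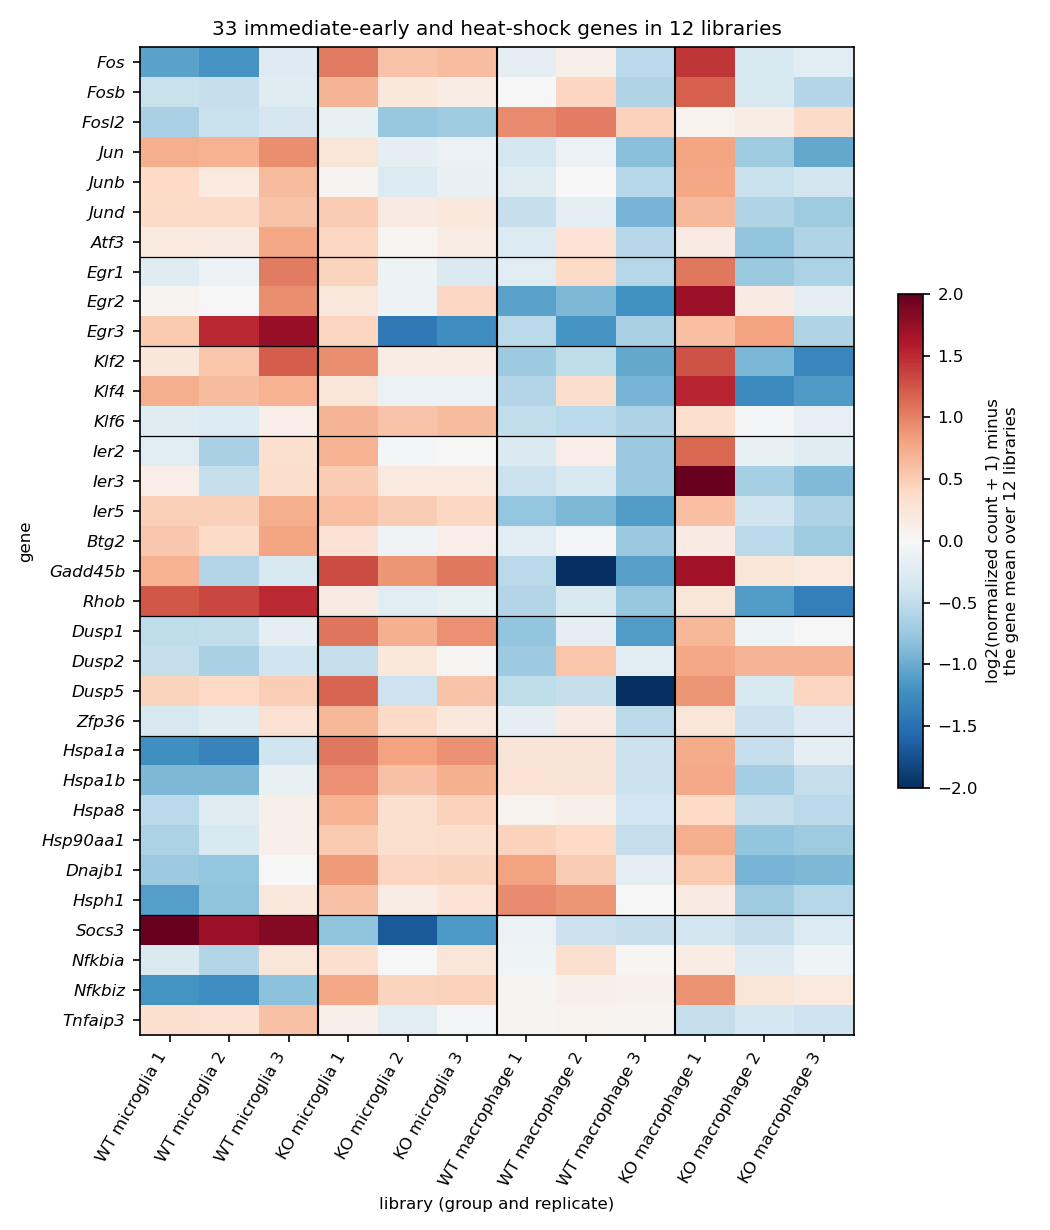
Log2 level of each of the 33 members (rows, ordered by role) in each library (columns), as the difference from the gene's mean over the 12 libraries; colours are saturated beyond 2 in either direction. The column of KO macrophage replicate 1 differs from the other 2 columns of its group for most rows, and the Socs3 row is high in the 3 WT microglia columns.

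In KO microglia, 5 of the 6 listed chaperones were called higher, and the early and feedback genes changed in opposite directions. Chaperone genes outside the list went both ways, with 6 higher and 5 lower of 30 tested. In KO against WT microglia, 9 of the 32 tested members were higher and 4 lower at an adjusted p under 0.05 in limma's moderated test, adjusted over all 12519 genes. The background was large: 42.5% of all tested genes passed, 21.9% higher and 20.6% lower, so the members' 13 calls were not more frequent than those of other genes. For 19 of the 32 members the WT and KO libraries occupied separate ranges, against 55.2% of all genes. The median log2 change of the members was 0.35, against -0.01 over all genes. In bulk samples of this kind, fewer cells that express a gene and less RNA of it per cell cannot be told apart. Without KO macrophage replicate 1, which belongs to neither group but enters the common estimate of the spread, 13 members were higher (24.8% of all genes) and 8 lower (24.0%), and 48.8% of all genes passed. Mitochondrial transcripts made up 4.35%, 3.86% and 4.36% of the reads in WT and 5.84%, 6.72% and 7.68% in KO microglia, without overlap. The part of that difference in the members' changes was not tested. The added calls were Fosb, Zfp36, Hsp90aa1 and Nfkbia, higher, and Jun, Junb, Btg2 and Klf4, lower.

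The heat-shock chaperones were the role with most calls: 5 of 6 were higher in KO microglia and none lower. Hspa1a (chromosome 17, 34969190 to 34972156, minus strand), which encodes inducible Hsp70, was at 787, 732 and 1405 in WT and at 3838, 3237 and 3489 in KO microglia. The groups did not overlap, although WT replicate 3 was well above the other WT libraries. The difference was log2 1.91 ± 0.28 (SE), adjusted p = 5.22e-05 by limma. Hspa1b, the near-identical copy beside it, was at 935, 937 and 1571 in WT and at 3287, 2615 and 2853 in KO (log2 1.38 ± 0.31, adjusted p = 0.00176 by limma). The constitutive Hsp70 gene Hspa8 rose from 1182 ± 263 to 1922 ± 252 (log2 0.72, limma adjusted p = 0.0156). Dnajb1, the Hsp40 co-chaperone of Hsp70, rose from 292 ± 92.1 to 605 ± 103 (log2 1.08, limma adjusted p = 0.0170). Hsph1, an Hsp110 that exchanges the nucleotide of Hsp70, stood at 239, 294 and 595 in WT and at 769, 567 and 622 in KO, so that its groups overlapped (log2 0.90, limma adjusted p = 0.0309). Hsp90aa1, the inducible Hsp90, averaged 631 ± 161 and 987 ± 76.8 and did not pass (limma adjusted p = 0.118), although its libraries did not overlap. The calls of Hspa8, Dnajb1 and Hsph1 were lost when 1 library was left out: WT replicate 1 or KO replicate 1 for Hspa8, with WT replicate 2 in addition for Dnajb1, and with WT replicate 2 and KO replicate 3 in addition for Hsph1. Their highest adjusted p over the 22 alternatives was 0.0833, 0.0796 and 0.157.

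**Figure D3:**
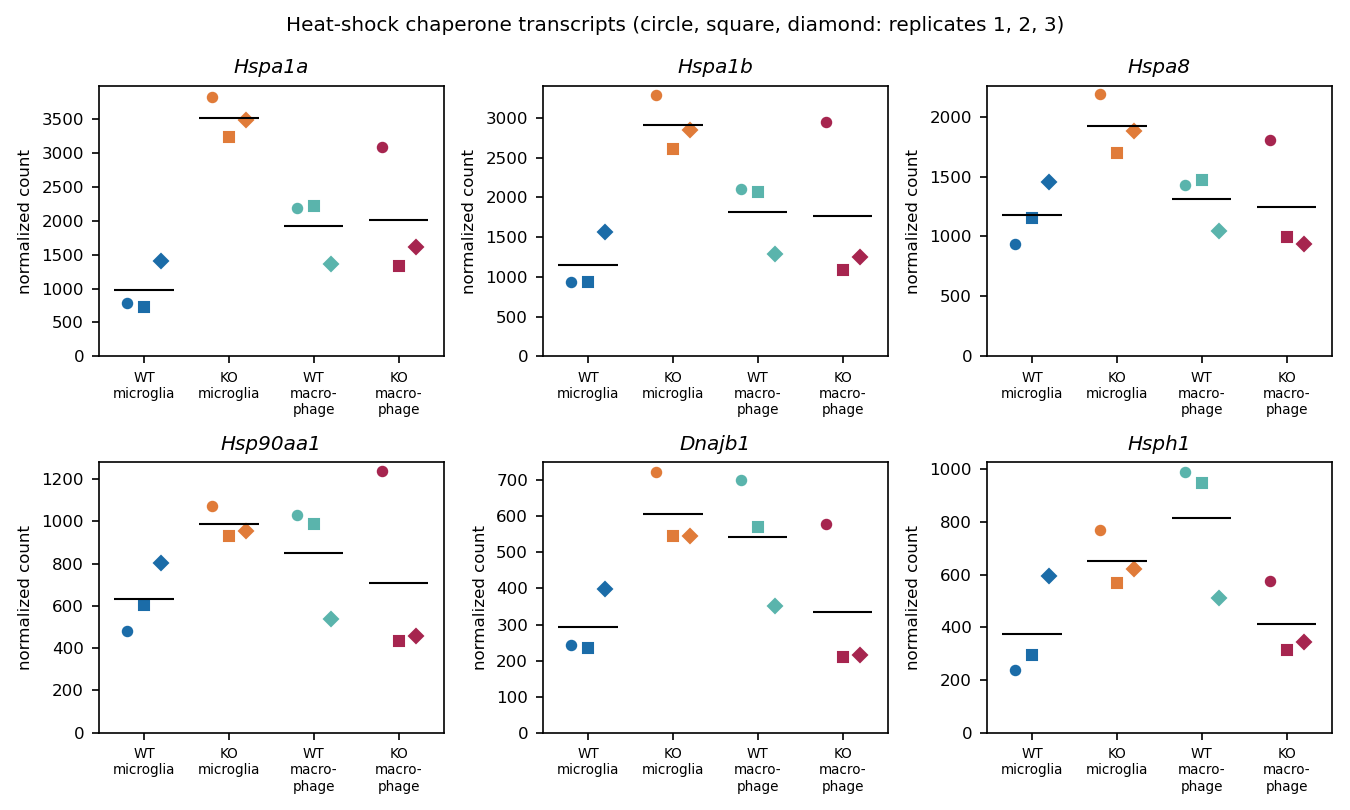
Normalized counts of the 6 chaperone genes in each library, with a line at the group mean. KO microglia libraries lie above the WT microglia libraries for 5 genes, and KO macrophage replicate 1 lies above the other 2 KO macrophage libraries for all 6.

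The AP-1 subunits did not move as a block in microglia. Fos, the inducible partner of Jun, was at 706, 660 and 1241 in WT and at 3075, 2205 and 2285 in KO microglia, without overlap (log2 1.58 ± 0.36, limma adjusted p = 0.00216). It was the 1 AP-1 subunit of 7 to pass. Jun went the other way, with 7229, 7074 and 8352 in WT and 5191, 3814 and 4035 in KO; the libraries did not overlap, but the difference of log2 -0.81 ± 0.33 did not pass (limma adjusted p = 0.0615). Without KO macrophage replicate 1 it was called, with the same log2 value and a limma adjusted p of 0.000274. Junb likewise changed from not called (limma adjusted p = 0.102) to lower (0.00271), and Fosb from not called (0.110) to higher (0.00480). Fosb averaged 320 ± 27.2 in WT and 536 ± 114 in KO microglia. Jund, Fosl2 and Atf3 differed by at most 0.18 on the log2 scale and were not called in either fit.

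**Figure D4:**
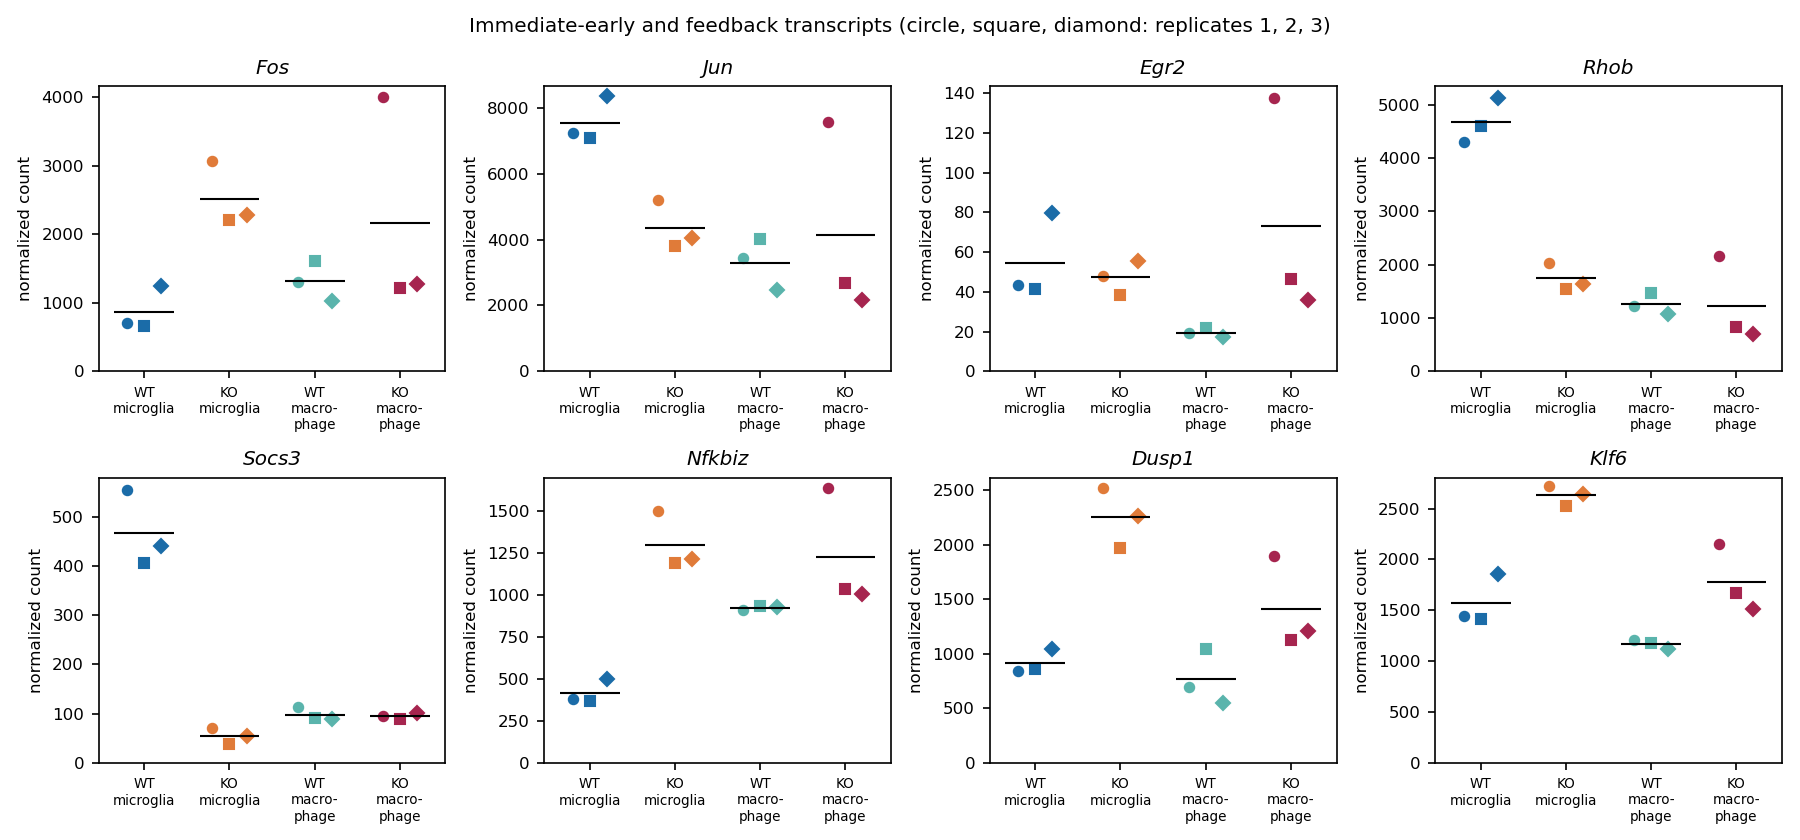
Normalized counts of 8 early and feedback genes in each library, with a line at the group mean. Socs3 and Rhob are highest in the 3 WT microglia libraries and Dusp1 and Klf6 in the 3 KO microglia libraries, while the highest Fos, Egr2 and Nfkbiz values are those of KO macrophage replicate 1.

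Feedback genes showed the clearest split in microglia. Socs3 (chromosome 11, 117966079 to 117970047, minus strand), the inhibitor of JAK-STAT signalling, was at 554, 407 and 440 in WT and at 69.7, 37.4 and 54.7 in KO microglia. Every KO library lay far below every WT library; the ratio of means was 8.66 in favour of WT (log2 -3.12 ± 0.20, limma adjusted p = 3.33e-09). Tnfaip3, which encodes the NF-kappa B inhibitor A20, was at 719, 706 and 864 in WT and at 613, 489 and 557 in KO (log2 -0.46 ± 0.10, limma adjusted p = 0.00115). Nfkbiz, an inducible nuclear partner of NF-kappa B, went up, from 382, 370 and 497 to 1503, 1190 and 1214 (log2 1.65 ± 0.16, limma adjusted p = 6.23e-07). Nfkbia, which encodes the cytoplasmic inhibitor I kappa B alpha, averaged 454 ± 134 and 586 ± 70.8 and did not pass (limma adjusted p = 0.0803).

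Among the other early genes, Dusp1, the phosphatase that switches off p38 and JNK, was at 842, 857 and 1044 in WT and at 2520, 1971 and 2268 in KO microglia (log2 1.30 ± 0.21, limma adjusted p = 0.000124). Klf6, a KLF activator, was at 1442, 1415 and 1861 against 2726, 2524 and 2648 (log2 0.75 ± 0.12, limma adjusted p = 0.000126). Both genes were higher in every KO library than in any WT library. Rhob, an early-induced small GTPase, was at 4306, 4593 and 5128 in WT and at 2033, 1549 and 1644 in KO microglia (log2 -1.43 ± 0.29, limma adjusted p = 0.000803). Egr3, a sparsely counted EGR factor, was at 10.6, 21.9 and 25.9 against 9.82, 1.97 and 2.41 (log2 -2.01 ± 0.56, limma adjusted p = 0.00907). Its KO libraries were all below its WT libraries. Egr1 and Egr2 showed no called change, with log2 -0.20 ± 0.42 and -0.15 ± 0.40. Ier2, Ier3, Ier5, Klf2, Klf4, Btg2, Zfp36, Dusp2 and Gadd45b also missed the threshold. Without KO macrophage replicate 1, Btg2, an antiproliferative early gene, and Klf4 were called lower and Zfp36, which promotes decay of cytokine mRNAs, higher.

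Dusp1 and 8 other members overlap another gene in GENCODE, and whether the counts used strand is not given in the sources used here. Ergic1, which overlaps Dusp1, averaged 279 and 259 in WT and KO microglia, and 185 and 231 in WT and KO macrophages. Prdx2, which overlaps Junb, averaged 56.5 to 69.6 in the 4 groups, and the antisense gene Junos 17.1 to 22.1 beside Jun. Reads of these pairs cannot be told apart.

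In macrophages fewer members were called than in microglia, as were fewer of all genes, and none of the 6 listed chaperones was called higher. In KO against WT macrophages, 5 of 32 members were higher and 3 lower (limma adjusted p under 0.05), against 31.4% of all tested genes, 16.0% higher and 15.4% lower, and the median log2 change was 0.11. The libraries did not overlap for 9 of 32 members, against 45.2% of all genes. Egr2, an EGR factor, was at 19.1, 21.6 and 17.3 in WT and at 138, 46.2 and 35.9 in KO macrophages (log2 1.62 ± 0.40, limma adjusted p = 0.00602). Its 3 KO libraries were above all WT libraries, with replicate 1 far above the other 2. Gadd45b, a stress-induced growth arrest gene, was at 17.3, 1.27 and 11.5 in WT and at 84.8, 30.5 and 29.4 in KO (log2 2.44 ± 0.63, limma adjusted p = 0.00806). Ier5, an early gene, was at 643, 587 and 507 in WT and at 1673, 836 and 715 in KO (limma adjusted p = 0.0124). Without replicate 1 its KO mean went from 1075 to 776 and its log2 change was 0.42 ± 0.11 (limma adjusted p = 0.00755).

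Dusp1 and Klf6 were the 2 members called higher in both KO comparisons. In macrophages Dusp1 was at 694, 1048 and 552 in WT and at 1901, 1130 and 1209 in KO (log2 0.90 ± 0.21, limma adjusted p = 0.00462). Klf6 was at 1207, 1176 and 1115 in WT and at 2151, 1670 and 1512 in KO (log2 0.59 ± 0.12, limma adjusted p = 0.00188). Neither overlapped between genotypes. Tnfaip3 was the member called lower in both: it was at 595, 604 and 595 in WT and at 413, 450 and 431 in KO macrophages (log2 -0.47 ± 0.10, limma adjusted p = 0.00187). Fosl2, a Fos relative that is often late and sustained, fell from 343 ± 67.9 to 222 ± 25.0 (log2 -0.61, limma adjusted p = 0.0157). Hsph1 fell from 816 ± 264 to 412 ± 144 (log2 -0.98, limma adjusted p = 0.0275). Its groups overlapped: WT libraries were at 989, 947 and 512 and KO libraries at 578, 314 and 345. Its call was lost without WT macrophage replicate 1 or 2 or KO macrophage replicate 2 or 3, that of Fosl2 without WT macrophage replicate 1 or 2, and that of Ier5 without WT macrophage replicate 3.

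For the chaperones, the outcome in macrophages turned on the library that stood apart. Hspa1a was at 2197, 2217 and 1366 in WT and at 3097, 1339 and 1608 in KO macrophages, with log2 0.00 ± 0.28. Without replicate 1 the KO mean was 1474 and the difference log2 -0.36 ± 0.23, not called (limma adjusted p = 0.276). Hspa1b, Hsp90aa1, Dnajb1 and Hsph1 were called lower without it, at log2 -0.61, -0.88, -1.29 and -1.25 (limma adjusted p = 0.0430, 0.00691, 0.000658 and 0.00500). With it only Hsph1 of the 6 passed. Dnajb1 was at 701, 572 and 352 in WT and at 578, 210 and 215 in KO macrophages. Rhob and Klf4 were also called lower without this library, and the totals became 5 higher (14.3% of all genes) and 8 lower (12.8%), with 27.1% of all genes passing. The 5 genes called higher and the 3 called lower with all libraries were called again without it.

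Whether the KO effect differed between the 2 cell origins was tested directly. It passed for 9 of 32 members, against 25.8% of all genes, 4 of them higher and 5 lower. The chaperones had 4 of these: the KO effect was lower in macrophages than in microglia for Hspa1a by log2 -1.91 ± 0.40 (limma adjusted p = 0.00255), and likewise for Hspa1b, Dnajb1 and Hsph1. Without KO macrophage replicate 1 all 6 chaperones passed, with a median of -2.07, and the count of members became 5 higher (14.2% of all genes) and 9 lower (13.6%), 27.8% of all genes passing. Socs3 gave the clearest difference, log2 3.09 ± 0.28 (limma adjusted p = 9.78e-07). It was at 113, 90.2 and 88.1 in WT and at 94.4, 88.1 and 101 in KO macrophages, so that the 2 macrophage groups overlapped and both lay below all WT microglia. Nfkbiz was at 913, 937 and 928 in WT and at 1639, 1037 and 1008 in KO macrophages, and its KO effect was smaller there than in microglia (log2 -1.28 ± 0.23, limma adjusted p = 0.000725). Rhob, Egr2 and Egr3 had a higher KO effect in macrophages than in microglia.

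**Figure D5:**
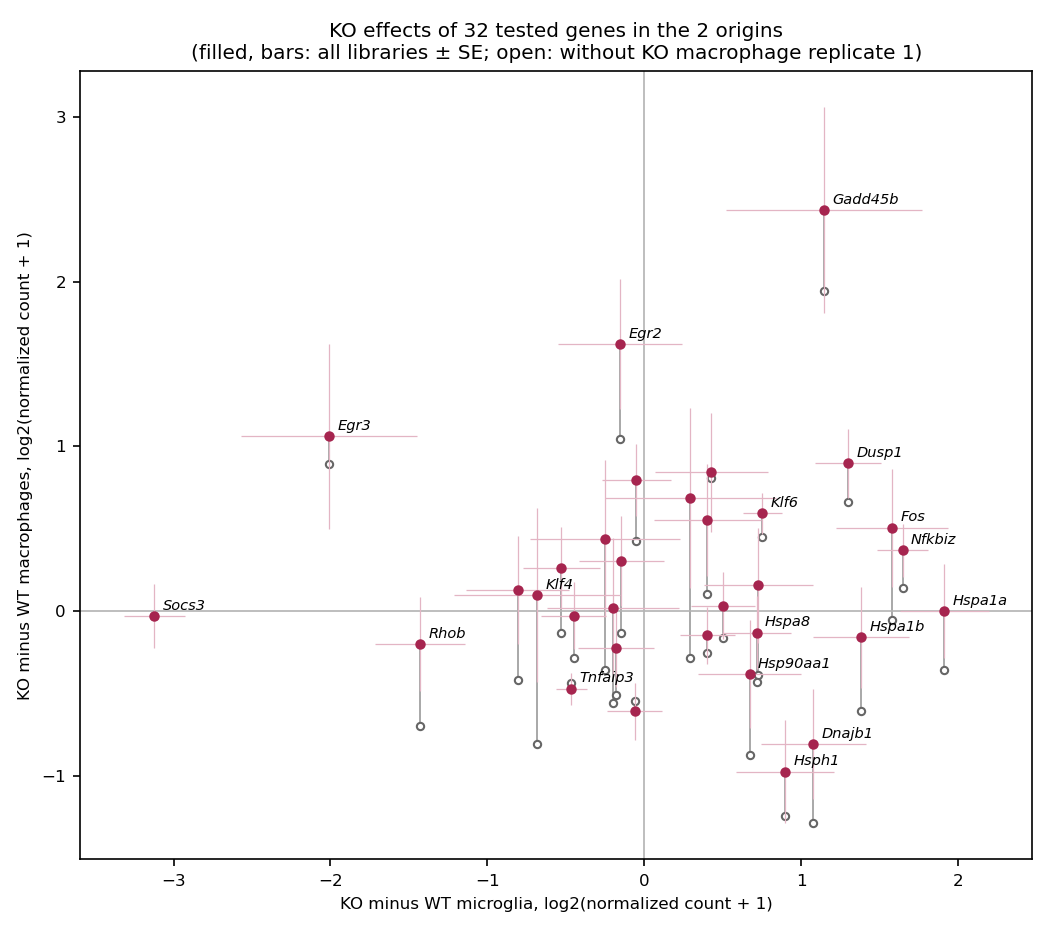
Log2 KO effect of each tested member in microglia (x axis) and in macrophages (y axis), as filled points with bars of 1 SE, joined to open points that give the macrophage effect without KO macrophage replicate 1. The chaperones lie to the right of 0 on the x axis and near or below 0 on the y axis, and Socs3 lies at -3.12 in microglia and -0.03 in macrophages.

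Before any loss of Tgfbr2, the 2 cell origins already differed. In WT macrophages against WT microglia, 4 members were higher and 13 lower of 32 (limma adjusted p under 0.05), against 39.4% of all genes, 19.2% higher and 20.2% lower. The libraries did not overlap for 15 of 32, against 53.9% of all genes. Without KO macrophage replicate 1 the count was 7 higher (22.9% of all genes) and 15 lower (23.5%), with 46.4% of all genes passing. This comparison shares its WT libraries with those above. Higher in WT macrophages were Fosl2 (log2 1.29 ± 0.18, limma adjusted p = 3.05e-05), Nfkbiz (1.16), Hsph1 (1.17) and Hspa1a (1.01). Lower were Socs3 (-2.25 ± 0.20, limma adjusted p = 2.44e-07), Rhob (-1.90), Ier5 (-1.49), Egr2, Egr3, Klf2, Klf6, Btg2, Jun, Junb, Jund, Tnfaip3 and Gadd45b. Jun averaged 7552 ± 698 in WT microglia and 3300 ± 793 in WT macrophages, a log2 difference of -1.22 ± 0.33 (limma adjusted p = 0.00824). With the series given by the first digit of the number in the library titles as a covariate, that difference was -0.87 ± 0.34 and was not called (limma adjusted p = 0.0636). The calls of Jund, Junb, Klf2 and Gadd45b were lost in that fit as well, so that 8 members were lower instead of 13; all WT macrophages belong to 1 series. The calls of Gadd45b, Junb and Klf2 were lost under 15, 8 and 6 of the 22 alternatives, each without WT microglia replicate 3 among others. Between the KO groups fewer members were called with all libraries, as were fewer of all genes. In KO macrophages against KO microglia, Fosl2 and Socs3 were higher and Dusp1, Klf6 and Tnfaip3 lower. Of all genes 10.5% passed, 5.45% higher and 5.05% lower. The libraries did not overlap for 7 of 32 members, against 27.1% of all genes. The call of Dusp1 was lost under 13 of 22 alternatives and that of Tnfaip3 under 7. Without KO macrophage replicate 1 the count became 2 higher and 20 lower, while 12.4% of all genes passed, 6.65% higher and 5.74% lower. In that fit all 6 chaperones and 5 of 7 AP-1 subunits were lower in KO macrophages, and the members' median log2 difference went from -0.41 to -0.85.

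Genes of the same pathways outside the list changed in both directions. The counts below are given beside the share of all tested genes that passed in the same comparison; without KO macrophage replicate 1 that share was 48.8% in microglia and 27.1% in macrophages. Of 35 tested further immediate-early genes, 12 were higher and 7 lower in KO microglia (42.5% of all genes passed), and 7 and 6 in KO macrophages (31.4%). These counts were 14 and 8, and 8 and 7, without KO macrophage replicate 1. Sik1, a CREB-induced kinase, was at 800 ± 27.8 in KO against 21.8 ± 10.7 in WT microglia (log2 5.23 ± 0.26, limma adjusted p = 2.55e-10), and at 710 ± 189 against 120 ± 27.3 in macrophages. Plk2, an early-induced kinase, went from 58.6 ± 9.89 to 453 ± 63.5 and from 31.9 ± 6.02 to 331 ± 250; in the latter, replicate 1 was at 619 and the others at 185 and 188. Sgk1, a glucocorticoid-induced kinase, was lower in both KO groups, at 170 ± 27.7 against 2170 ± 143 in microglia and at 298 ± 49.4 against 689 ± 61.1 in macrophages. These 3 genes moved further than any AP-1 subunit, but they were named because their changes were among the largest called in their list. Gem, an early-induced small GTPase, fell from 111 ± 35.8 to 8.57 ± 2.01 in KO microglia. Plk3 was called lower in both KO groups. Its KO means were 151 ± 58.0 (macrophages) and 35.1 ± 6.27 (microglia). The matching WT means were 581 ± 55.9 and 250 ± 35.5.

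Of 30 tested further chaperone genes, 6 were higher and 5 lower in KO microglia (42.5% of all genes passed), and 5 and 4 in KO macrophages (31.4%). They were 7 and 6, and 5 and 6, without KO macrophage replicate 1. Hspa4l, an Hsp110 relative, went from 26.8 ± 5.497 to 143 ± 3.95 and from 90.5 ± 20.4 to 200.1 ± 38.4. Dnaja1, an Hsp40, went from 243 ± 89.1 to 513 ± 83.8 in KO microglia; in KO macrophages it was at 723 in replicate 1 and at 209 and 247 in the others. Hspa5, the endoplasmic reticulum Hsp70, was called higher in both origins. It went from 2753.5 ± 124 to 3891 ± 235 in KO microglia. In KO macrophages it went from 2166 ± 131 to 4099 ± 472, and all 3 libraries were high. Dnajb4 and Bag3 fell in KO microglia, and Ahsa2 and Dnajb6 in KO macrophages.

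Of 35 tested genes of NF-kappa B and cytokine feedback, 13 were higher and 8 lower in KO microglia (42.5% of all genes passed), and 5 and 7 in KO macrophages (31.4%). With KO macrophage replicate 1 left out, 16 and 10, and 5 and 4, passed. Il1b, the interleukin 1 beta gene, went from 21.2 ± 16.8 to 328 ± 43.5 in KO microglia (log2 4.15 ± 0.37), and Cxcl10, a chemokine, from 20.8 ± 8.82 to 150.1 ± 26.2. Il1a, the interleukin 1 alpha gene, was lower after the loss of Tgfbr2 in both origins: 64.9 ± 8.55 against 534 ± 37.1 in microglia, and 117.1 ± 19.7 against 298 ± 34.99 in macrophages. Icam1 was called lower in both KO groups. Its KO and WT means were 285 and 595 for microglia, and 379 and 491 for macrophages. Traf1, a TNF receptor adaptor, and the chemokine gene Ccl2 were called higher in both. The KO and WT means of Traf1 were 92.2 and 4.24 for microglia, and 124 and 23.8 for macrophages. Those of Ccl2 were 264 and 120, then 304 and 91.0, in the same order. The NF-kappa B subunit gene Rel fell in KO macrophages and was not called in KO microglia.

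Of 11 tested MAP kinase phosphatase and feedback genes, 3 were higher and 3 lower in KO microglia (42.5% of all genes passed), and 6 and 1 in KO macrophages (31.4%), with the same counts when KO macrophage replicate 1 was left out. Dusp22 rose in both, from 59.4 ± 7.08 to 131 ± 10.2 and from 79.7 ± 5.93 to 120.4 ± 16.5. Dusp16 was called higher in both as well. Its KO means were 398 (microglia) and 347 (macrophages), and its WT means 294 and 236. Dusp6 and Dusp7 fell in KO microglia, and Dusp3 rose in KO macrophages. Of 15 tested genes of the KLF, Zfp36, BTG, GADD45 and small GTPase families, 5 were higher and 5 lower in KO microglia (42.5% of all genes passed), and 6 and 0 in KO macrophages (31.4%). With KO macrophage replicate 1 left out, 5 and 6, and 7 and 1, passed, the lower one in macrophages being Gadd45g. Klf10, a TGF-beta-induced gene, rose from 67.5 ± 12.4 to 132.6 ± 7.22 and from 57.0 ± 4.06 to 122 ± 40.5. Zfp36l1 rose and Klf12 and Gadd45g fell in KO microglia. Rhoa was called higher in KO macrophages, from 426 ± 36.1 to 573 ± 50.2, and lower in KO microglia, from 722 ± 57.4 to 587 ± 70.0. Gadd45g was at 266 in KO macrophage replicate 1 and at 64.6 and 61.0 in the other 2.

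The number in the library titles starts with 1 for KO macrophage replicate 1, for WT microglia 1 and 2 and for KO microglia 1 and 2, and with 2 for the others. The labels do not say what this number stands for. Within the microglia of each series, the 9 members called higher were higher in KO and the 4 called lower were lower. They were called on these same libraries, so this agreement in sign is not independent support. Some members not called with all libraries changed sign between the series, among them Egr1 (log2 0.36 and -1.32) and Zfp36 (0.81 and -0.10). The differences of the 9 were log2 0.88 to 2.21 in the series starting with 1 and 0.06 to 1.31 in the other, which has 1 library of each genotype. The WT macrophages were all in the series starting with 2. There the 5 members called higher in KO macrophages differed by log2 0.42 to 1.95 and the 3 called lower by -1.25 to -0.44. These are the same differences as in the fit without KO macrophage replicate 1.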

How the data were processed

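Total RNA of sorted cells was sequenced, and the authors deposited 1 table of log2 values for 25904 genes in 12 libraries. The submitters' processing notes name STAR, bcl2fastq, CASAVA and the build GRCm38. Versions, read counter, annotation and strand setting: not given in the sources used here. The deposited log2 values were found to be log2(reads divided by a size factor + 1): all 310848 values gave whole reads (tolerance 0.01), and the value of 1 read matched the inverse of a median-of-ratios size factor. Library depth was 2615404 to 6364994 reads. A low member therefore carries more counting error than the others.

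Symbols came from GENCODE mouse release 21, in which 25730 identifiers had a symbol. Genes with at least 10 normalized counts in at least 3 libraries were tested with limma 3.58.1 in R 4.3.3 (lmFit, eBayes with a mean-variance trend) on the deposited values, with 4 group means and 8 residual degrees of freedom, and Benjamini-Hochberg adjustment over 12519 genes at a threshold of 0.05. Changes are differences of log2(normalized count + 1), so those of low genes are understated. P-values measure the spread between pools. Python 3.11.15, numpy 2.4.6, pandas 2.3.3 and matplotlib 3.10.9 were used otherwise. Promoter sequences were RefSeq's on GRCm38.p6, for 27 of 33 members; Egr1, Egr3, Hsp90aa1, Hspa8, Ier2 and Nfkbiz were not matched.

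The members, their roles and the further lists were chosen with earlier results of these data known. All members were accounted for; of each further list, up to 2 called genes in each direction with the largest change and a mean of at least 100 in the higher group were named for each KO-against-WT comparison. Klf5 and Hspa14 of those lists and Cldn5, Chil3, Camp, Ly6g and Retnlg of the markers were not analysed here. The scripts were tested on simulated data. Alternatives were other pseudocounts, no filter, TMM scaling, robust and weighted limma, fewer groups in the fit, the title number as a covariate, each library left out, limma-voom and a Ddx3y covariate.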

Additional observations from a re-analysis of the deposited data

Results flagged for a closer look

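For 9 members the KO effect differed between macrophages and microglia by the test of the difference itself (limma adjusted p under 0.05), against 25.8% of all tested genes. The difference, the log2 KO effect in macrophages minus that in microglia, was 3.09 for Socs3, 3.07 for Egr3, 1.77 for Egr2 and 1.23 for Rhob. It was -1.91 for Hspa1a, -1.54 for Hspa1b, -1.89 for Dnajb1, -1.87 for Hsph1 and -1.28 for Nfkbiz. Egr3, Hspa1a, Hsph1, Socs3 and Nfkbiz passed under all 21 alternatives that could be run, Hspa1b and Dnajb1 under 20, Egr2 under 14 and Rhob under 12. Hspa1b and Dnajb1 were lost under limma's robust option. Egr2 was lost without WT microglia replicate 3, KO microglia replicate 1 or 2, or WT macrophage replicate 1 or 3, under limma-voom and with a Ddx3y covariate. Rhob was lost without any 1 of the WT microglia libraries, KO microglia replicate 2 or 3, or WT macrophage replicate 1 or 3, under limma's robust option and with a Ddx3y covariate. Gate, Cx3cr1 dose and genotype cannot be told apart in either origin.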

How the results depend on the processing

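Calls depended most on KO macrophage replicate 1. With 1 library left out at a time, the number of members called ranged from 10 to 21 in KO against WT microglia (13 with all libraries), from 6 to 13 in KO against WT macrophages (8), from 13 to 22 in WT macrophages against WT microglia (17), from 2 to 22 in KO macrophages against KO microglia (5) and from 7 to 14 for the difference of the KO effects (9). The upper end was reached in each case without KO macrophage replicate 1. In KO macrophages against KO microglia the count fell to 3 without KO microglia replicate 1 or 2, and to 2 without KO microglia replicate 3 or KO macrophage replicate 3. Klf4 reversed in KO against WT macrophages, from log2 0.10, not called, to -0.81 ± 0.26 (limma adjusted p = 0.0262) without KO macrophage replicate 1. Its range with 1 library left out was -0.81 to 0.59. With sample weights, which gave that library a weight of 0.178, 20, 15, 23 and 16 members were called in KO against WT microglia, KO against WT macrophages, KO macrophages against KO microglia and the difference of the KO effects. With only the compared groups in the fit, 21 were called in KO against WT microglia and 2 in KO macrophages against KO microglia. Robust limma gave 11 in WT macrophages against WT microglia. In KO macrophages against KO microglia, limma-voom on the recovered reads gave 11 and a Ddx3y covariate 1; both were chosen after seeing the data. Other counts stayed within 1.5 times. In KO against WT microglia Fos, Egr3, Dusp1, Klf6, Hspa1a, Hspa1b, Socs3, Nfkbiz, Tnfaip3 and Rhob were called under all 22 alternatives, and in KO against WT macrophages Egr2, Dusp1, Klf6 and Tnfaip3. The causes were not tested. The planned edgeR and DESeq2 fits were not run; limma-voom on the recovered reads was run in their place. No paired analysis was possible because the labels give no replicate numbers.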
